A study of Homo sapiens with 36 samples.

Results

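The genes described here build and control the contractile actin cytoskeleton of fibroblasts, and 38 of them were chosen by name: serum response factor and its cofactors, smooth muscle actins, actin-binding proteins, myosins, adhesion and crosslinking proteins, intermediate filaments and mechanosensitive targets. The count table held 57232 genes, all 38 had counts, and all 38 were among the 18696 genes that passed the filter on low counts and were tested. The cells were IMR90 ER:RAS, a line of human lung fibroblasts whose RAS protein carries part of the oestrogen receptor and is switched on by 4OHT (4-hydroxytamoxifen, used at 100 nM), which drives the cells into senescence. RNA was sequenced from senescent cells (with 4OHT) treated with digoxin, senescent cells treated with ouabain, senescent cells with vehicle and proliferating cells (no 4OHT) with vehicle. Each was sampled 16 h after treatment, 36 h after treatment, and 36 h after treatment with a caspase inhibitor added overnight, which gives 12 groups of 3 libraries. All groups carry the ER:RAS fusion, were at passage 14 and were kept in 10% serum. The induction period was 6 days in all groups, without 4OHT in proliferating cells, and the medium was changed on day 3. Proliferating cells received no drug, and no dose of digoxin, ouabain or the inhibitor is stated. Digoxin and ouabain are cardiac glycosides, steroid glycosides that block the sodium pump (Na/K-ATPase); they differ in the steroid part and in the sugar, which is a chain of digitoxose in digoxin and a single rhamnose in ouabain.

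Contractile genes of fibroblasts are largely governed by serum response factor (SRF), which binds a DNA element called the CArG box. Its cofactors MRTFA and MRTFB are held in the cytoplasm by monomeric actin and move to the nucleus when actin polymerises, so that the state of the cytoskeleton feeds back on its own genes. MYOCD, the founding relative of these cofactors, acts in smooth muscle and heart. A separate set of cofactors, the ternary complex factors, directs SRF to immediate early genes such as FOS and EGR1. The YAP and TAZ proteins, which bind DNA through TEAD factors, also respond to cell tension, and CCN1, CCN2 and ANKRD1 are common readouts of both routes. Fibroblasts that switch on smooth muscle actin and related genes are called myofibroblasts.

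Library totals lay between 10854351 and 21446415 counts. Values below are library-scaled counts (CPM, the count divided by the TMM-corrected library total and multiplied by 1000000), values after ± are standard deviations (SD, n = 3) for CPM and shares and standard errors (SE) for log2 changes, and a gene is said to have risen or fallen where the edgeR quasi-likelihood test gave a Benjamini-Hochberg adjusted p under 0.05 over all 18696 genes. Replicate 2 of proliferating cells at 16 h stood furthest from its group, with a median absolute log2 difference of 0.375 to the other replicates. Replicate 1 of that group, whose value includes its distance to replicate 2, was at 0.274, replicate 2 of ouabain at 16 h at 0.271, and the other libraries at 0.195 or less. Proliferating replicate 2 was low for ACTA2, TAGLN, TPM2 and MYL6 and high for MYH9 and FLNA relative to the other proliferating libraries of that time. The labels do not state whether replicates were grown as separate cultures, so the spread behind each p-value is that between libraries and may be technical. In bulk RNA, fewer cells of a type and less RNA per cell cannot be told apart. Fibroblast identity was checked with 10 markers, whose summed level in each library lay between 1620 and 3603 CPM in senescent cells with or without drug and between 9828 and 13400 CPM in proliferating cells. Most of that level was the collagens COL1A1 and COL1A2. Of 8 epithelial markers only 1 (SFTPC) was at 0 in every library, and of 12 muscle markers only 2 (MYOD1 and MYOG). The others had counts, and the epithelial keratin KRT18 had group means between 20.8 and 48.75 CPM.

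Most of the contractile genes were lower in senescent than in proliferating cells at every time. Of the 38 genes, 29 fell and 3 rose at 16 h, when 25.2% of all tested genes fell and 26.4% rose. At 36 h 26 fell and 4 rose, beside 25.8% and 26.7% of all tested genes, and with the caspase inhibitor 26 fell and 4 rose, beside 25.7% and 26.6%. The median log2 change of the 38 genes was -0.62, -0.56 and -0.62, while that of all tested genes lay between -0.01 and 0.01. In all 3 of these comparisons, which rest on separate libraries, 23 genes fell, 3 rose (ANKRD1, TAGLN2 and VIM) and 4 did not pass the test (FLNC, MRTFA, MYL6 and SRF). The 38 genes together took 1.98 ± 0.00665% of all counts of a library in senescent cells at 16 h, against 2.82 ± 0.0960% in proliferating cells. Such a share divides by the library total alone, without the TMM correction used for CPM. At 36 h the share was 1.86 ± 0.00406% in senescent and 2.66 ± 0.0202% in proliferating cells. Without proliferating replicate 2, 30 genes fell and 1 rose at 16 h, and TAGLN2 (0.13) and VIM (0.13) lost their calls at that time. Other calls lost without 1 library at 16 h were ACTN1 (-0.15 without senescent replicate 1), MYL9 (-0.16 and -0.22 without proliferating replicate 1 or 3) and CCN2 (between -0.30 and -0.23 without any library but proliferating replicate 2). At 36 h TLN1 was lost without any library but proliferating replicate 3 (between -0.28 and -0.19). With the inhibitor MYH11 was lost without senescent replicate 1 (-0.57) and TPM2 without senescent replicate 1 or 2 or proliferating replicate 2 or 3 (between -0.43 and -0.38).

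**Figure D1:**
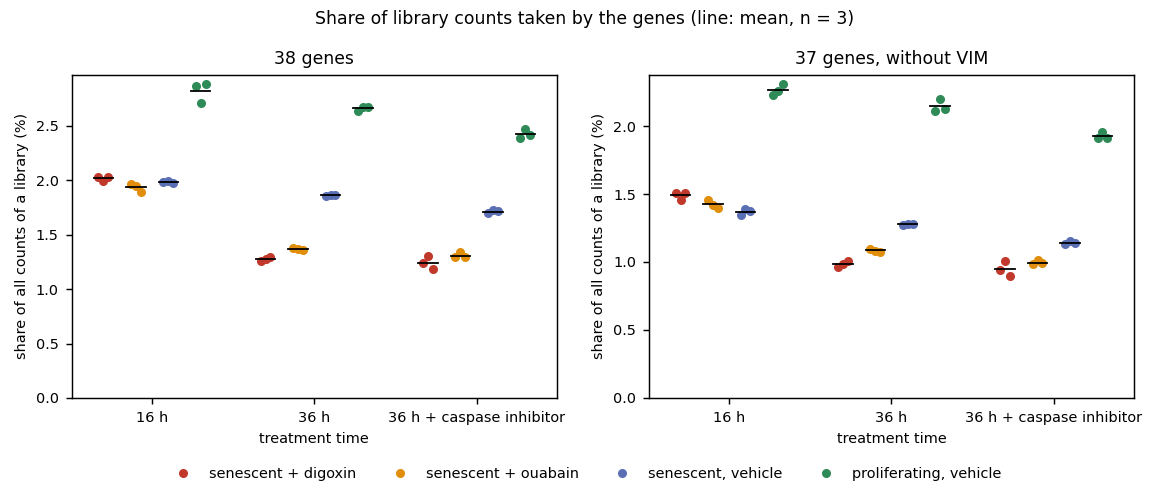
Share of all counts of a library taken by the 38 genes (left, in %) and by 37 of them without VIM (right), for each of the 36 libraries, with a line at the mean of 3. Senescent libraries lie below the proliferating libraries at every time, and the drug-treated libraries lie below the senescent vehicle libraries at 36 h, with and without the inhibitor. Shares divide by library totals alone, without the TMM correction.

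The promoters of the 38 genes, where a promoter window was given, were searched for the CArG box, the element bound by SRF, by name on both strands. The TEAD motif CATTCC and its reverse complement GGAATG were searched for as well. Windows reached from 250 bases before to 50 bases after the gene start (RefSeq, GRCh38.p14), while the counts were made on hg19. Of the 38 genes, 32 had such a window, 56 windows in all. CCN1, MYH11, TAGLN, MYOCD, MYL9 and DES had none and were not searched for either motif. A CArG box was found in 7 of 56 windows of these genes (12.5%), against 454 of 35116 of all windows (1.29%), and the TEAD motif in 16 of 56 (28.6%), against 14% of all windows. The 38 genes were chosen by name around SRF and myofibroblast genes. An excess of these motifs may come from that choice, so the shares are no test. The 7 genes with a CArG box were ACTG2, MYLK, CNN2, FLNA, TPM4, SRF and ACTN1. A match is a stretch of letters and no evidence of binding in these cells, and a window without one says nothing about the factor.

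The stretches below show the CArG boxes, in capitals, of the 5 genes that have one and fell in senescent cells in all 3 comparisons, ACTG2 with a pair of boxes, then the boxes of SRF. They lie at chr2:73892888-73892917 and chr2:73892925-73892954 (ACTG2, plus strand), chr3:123620623-123620652 (MYLK, minus), chr19:1026489-1026558 (CNN2, plus), chrX:154374709-154374738 (FLNA, minus), chr19:16067335-16067404 (TPM4, plus) and chr6:43171209-43171268 (SRF, plus), all before the gene start of that RefSeq window, GRCh38.p14, written 5′ to 3′ on the strand of the gene. In the GENCODE annotation of the same genome the downstream ACTG2 stretch and the MYLK stretch overlap exons of their own genes, and the FLNA stretch overlaps an exon of AC245140.3. SRF and CCN2 are shown by a choice made after their values were seen.
ACTG2, upstream box: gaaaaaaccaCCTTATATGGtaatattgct
ACTG2, downstream box: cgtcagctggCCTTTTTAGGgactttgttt
MYLK: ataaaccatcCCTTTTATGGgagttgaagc
CNN2: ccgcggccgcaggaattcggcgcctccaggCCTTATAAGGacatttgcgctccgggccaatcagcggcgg
FLNA: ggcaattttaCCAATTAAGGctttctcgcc
TPM4: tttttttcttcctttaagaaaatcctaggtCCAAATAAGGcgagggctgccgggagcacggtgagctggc
SRF, both boxes: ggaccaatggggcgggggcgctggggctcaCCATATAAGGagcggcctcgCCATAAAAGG
In CCN2, which rose with both drugs, the TEAD motif stands 3 times before the start, marked in capitals, at chr6:131951432-131951571 on the minus strand of the same build.
CCN2: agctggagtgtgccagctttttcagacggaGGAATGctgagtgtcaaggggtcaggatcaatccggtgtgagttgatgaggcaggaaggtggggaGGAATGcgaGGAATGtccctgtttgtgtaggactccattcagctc
With digoxin or ouabain at 36 h, described further on, ACTG2, MYLK, CNN2 and TPM4 fell and FLNA, SRF and ACTN1 were not called. Of the 15 genes with the TEAD motif, 4 rose with each drug at 36 h (CCN2, SYNPO2, FLNC and ANKRD1), 10 fell (MYLK, PALLD, LMOD1, VCL, MYH10, MYH9, ACTA2, CNN3, CALD1 and MRTFB) and ACTN1 was not called. Over all tested genes 31.6% rose and 32.4% fell with digoxin at 36 h, and 30.2% and 30.8% with ouabain. Genes that hold the TEAD motif moved both ways, as did genes at large. Of the 7 genes with a CArG box, 4 fell and 0 rose with each drug.

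Among SRF and its cofactors, MRTFB and MYOCD fell, and SRF and MRTFA did not pass the test. SRF had 41.8, 38.1 and 37.6 CPM in senescent cells at 36 h, against 35.7, 34.3 and 39.2 CPM in proliferating cells, overlapping ranges with a log2 change of 0.10 ± 0.09. MRTFA, the ubiquitous actin-sensing cofactor, was also not called (-0.02 ± 0.11). MRTFB, its close relative, had 10.0, 11.8 and 11.7 CPM in senescent cells and 25.3, 25.3 and 18.3 CPM in proliferating cells. The groups did not overlap, and the log2 change was -1.04 ± 0.19 (adjusted p = 1.83e-05). MYOCD, rare in both states, averaged 2.57 ± 0.322 CPM in senescent and 4.65 ± 0.466 CPM in proliferating cells (-0.85 ± 0.21), and it fell with a log2 change of -1.78 ± 0.23 with the inhibitor.

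The smooth muscle actins and the proteins that decorate actin filaments held some of the deepest falls. ACTA2, the smooth muscle alpha actin that marks myofibroblasts, had 84.4, 82.1 and 89.0 CPM in senescent cells at 36 h, against 337, 317 and 369 CPM in proliferating cells. Every senescent library was far below every proliferating one, with a 4.00-fold fall (-2.0 ± 0.10, adjusted p = 5.1e-18). ACTG2, the gamma actin of gut smooth muscle, had 87.1, 86.2 and 81.1 CPM in senescent and 347, 315 and 396 CPM in proliferating cells (-2.06 ± 0.12). CNN1, the smooth muscle calponin that binds actin and myosin, had 9.74, 8.88 and 9.88 CPM in senescent and 62.8, 57.1 and 67.8 CPM in proliferating cells (-2.72 ± 0.13, adjusted p = 4.34e-19). The groups of both genes were far apart. TAGLN, or SM22 alpha, an actin-bundling protein, had 147, 145 and 138 CPM in senescent cells, against 694, 748 and 824 CPM in proliferating cells. It fell 5.27-fold at 36 h and 3.82-fold at 16 h.

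LMOD1, a leiomodin that nucleates actin filaments in smooth muscle, changed most. It had 2.63, 3.22 and 2.61 CPM in senescent cells at 36 h, against 99.7, 84.7 and 102 CPM in proliferating cells. The fall was 33.7-fold (-5.07 ± 0.18, adjusted p = 6.85e-23), and the log2 change was -4.28 ± 0.17 at 16 h and -4.71 ± 0.18 with the inhibitor. SYNPO2, an actin-bundling protein of the Z-disc also called myopodin, had 1.59, 1.79 and 1.45 CPM in senescent and 14.5, 14.7 and 13.7 CPM in proliferating cells (-3.14 ± 0.22). Genes of the same families that are broadly expressed changed less. CNN2 and CNN3, calponins found outside muscle, fell with log2 changes of -0.85 ± 0.09 and -0.93 ± 0.09, and the stabilising proteins CALD1 (caldesmon), TPM1, TPM2 and TPM4 (tropomyosins) with log2 changes between -0.92 and -0.34. TPM2 was not called at 16 h (-0.10 ± 0.16), and without proliferating replicate 2 its log2 change was -0.40 (TPM2 adjusted p = 0.00115). TAGLN2, the non-muscle relative of TAGLN, rose: it had 292, 292 and 291 CPM in senescent cells and 193, 199 and 218 CPM in proliferating cells (0.52 ± 0.07).

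**Figure D2:**
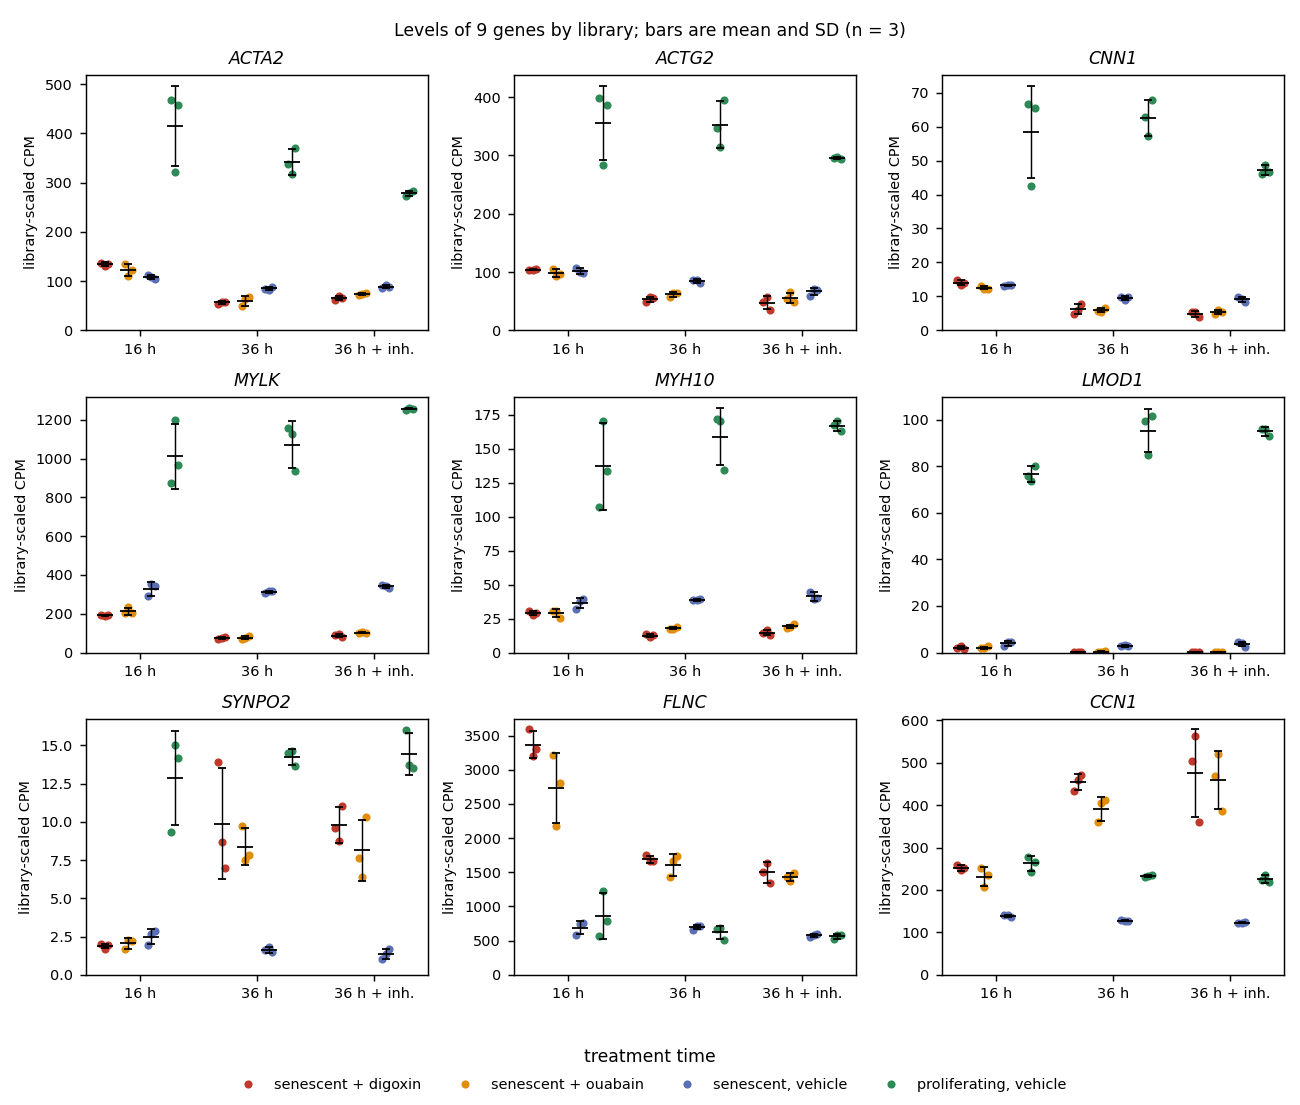
Levels in library-scaled CPM (linear axis from 0) of 9 genes in each library, by time; points are libraries and bars the mean and SD of 3. ACTA2, ACTG2, CNN1, MYLK, MYH10 and LMOD1 are low in all senescent groups relative to proliferating cells, while SYNPO2, FLNC and CCN1 are higher with either drug than with vehicle at 36 h.

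Of the 6 myosin genes, the kinase and one heavy chain fell most. MYLK, whose CArG box is printed above and which is the kinase that activates myosin by phosphorylating its light chain, had 308, 315 and 316 CPM in senescent cells at 36 h, against 1156, 1127 and 934 CPM in proliferating cells. That is a 3.42-fold fall (adjusted p = 5.61e-18) with no overlap. MYH10, the heavy chain of non-muscle myosin IIB, had 38.3, 38.6 and 39.4 CPM in senescent and 172, 170 and 135 CPM in proliferating cells (-2.03 ± 0.12). MYH9, the heavy chain of myosin IIA and the more abundant of the pair (131 CPM per kilobase of exon in senescent cells at 36 h, against 4.30 for MYH10), fell with a log2 change of -0.53 ± 0.11. The regulatory light chain MYL9 fell with a log2 change of -0.52 ± 0.08, and the essential light chain MYL6 was not called in any of the 3 comparisons (0.11, -0.24 and -0.06 in order of time and inhibitor). The smooth muscle heavy chain MYH11 was rare (4.54 ± 0.536 CPM in senescent and 5.40 ± 0.782 CPM in proliferating cells at 36 h). It fell at 16 h (-0.91 ± 0.22) and with the inhibitor (-0.70 ± 0.23) but was not called at 36 h (-0.24 ± 0.22).

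The adhesion and crosslinking genes divided. PALLD (palladin, a scaffold of stress fibres) had 242, 243 and 237 CPM in senescent cells at 36 h and 510, 492 and 454 CPM in proliferating cells, a 2.02-fold fall (adjusted p = 5.68e-17). FLNA, the main filamin that crosslinks actin, fell with a log2 change of -0.63 ± 0.11, vinculin (VCL), which ties integrin adhesions to actin, with -0.46 ± 0.07, talin (TLN1), which activates integrins, with -0.28 ± 0.11, and ACTN4, a crosslinking alpha-actinin, with -0.24 ± 0.07. PDLIM7, a PDZ and LIM domain protein of the cytoskeleton, fell at 16 h and with the inhibitor and was at -0.22 ± 0.10 at 36 h without it. Zyxin (ZYX, an adhesion protein that responds to force) and the alpha-actinin ACTN1 fell at 16 h (-0.31 and -0.22) and were not called at 36 h (0.11 and 0.01); whether these changes differ between times was not tested. FLNC, the muscle filamin, was not called at any time. PDLIM5, another PDZ and LIM protein, rose: it had 118, 115 and 116 CPM in senescent cells, against 75.1, 73.5 and 67.4 CPM in proliferating cells (0.70 ± 0.06).

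The intermediate filaments and the mechanosensitive targets did not follow one direction. VIM (vimentin), the abundant filament of mesenchymal cells, had 5406, 5408 and 5348 CPM in senescent cells at 36 h and 4409, 3908 and 4593 CPM in proliferating cells (0.32 ± 0.08). DES (desmin), the muscle filament, had 3 counts over the 3 senescent libraries and 37 counts over the 3 proliferating libraries, a ratio of 0.0842 (95% counting interval 0.0166 to 0.266). DES passed the filter on low counts only through proliferating libraries, where it is high. Its lower counts in senescent cells are therefore described and are no test, although DES is among the genes counted as fallen at 16 h and 36 h. CCN1, a secreted matrix-associated protein, had 128, 127 and 126 CPM in senescent and 230, 233 and 236 CPM in proliferating cells, a log2 change of -0.88 ± 0.10. CCN2, its relative also called CTGF, changed by -0.45 ± 0.12 and was not called with the inhibitor. ANKRD1, an ankyrin repeat protein of muscle and a target of YAP, rose: it had 8.92, 10.7 and 9.62 CPM in senescent cells, against 4.63, 3.37 and 4.29 CPM in proliferating cells (1.26 ± 0.16, adjusted p = 4.36e-08).

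**Figure D3:**
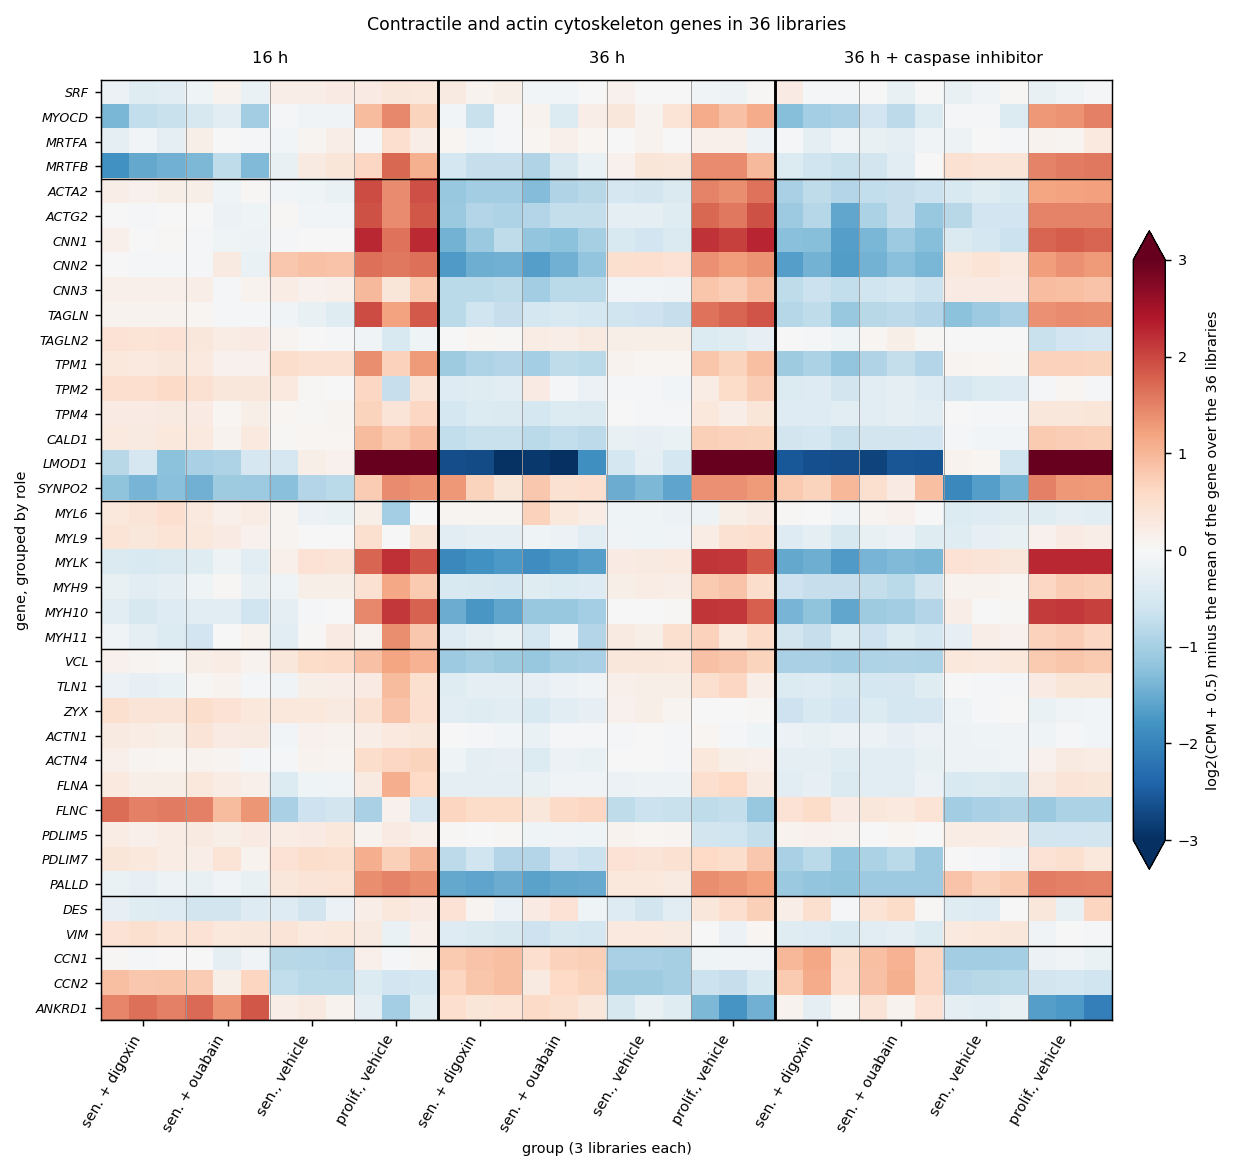
Each row is 1 of the 38 genes, grouped by role, and each column 1 of 36 libraries; colour is log2(CPM + 0.5) minus the mean of that gene over the 36 libraries, cut at -3 and 3. Proliferating libraries stand out as high for the smooth muscle genes, MYLK and MYH10, and the drug-treated libraries at 36 h as low for CNN2, MYLK, PALLD and VCL and high for CCN1 and SYNPO2 relative to vehicle.

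With digoxin the contractile genes moved both ways at 16 h. Of the 38 genes, 14 rose and 12 fell, beside 28.3% and 31.3% of all tested genes, with a median log2 change of 0.04. With ouabain at 16 h, 9 rose and 11 fell, beside 25.1% and 28.4% of all tested genes, with a median of -0.03. The direction split depends on scaling: with library totals alone, which moves the median of all tested genes by -0.32 with digoxin and -0.28 with ouabain, 4 rose and 23 fell with digoxin, beside 15.7% and 43.9% of all tested genes, and 4 rose and 21 fell with ouabain, beside 14.9% and 41.6%. Without ouabain replicate 2 alone, 9 rose and 10 fell with ouabain, and without it and proliferating replicate 2, which the model also holds, 14 rose and 12 fell. Without ouabain replicate 3, 6 genes fell. Digoxin and ouabain are compared with the same vehicle libraries, so their values stand side by side here as descriptions of each drug and neither supports the other.

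The mechanosensitive targets and FLNC held the clearest rises at 16 h. FLNC had 3591, 3203 and 3306 CPM with digoxin and 3210, 2182 and 2805 CPM with ouabain, against 575, 736 and 762 CPM with vehicle. All 6 drug-treated libraries were above all vehicle libraries, with rises of 4.87-fold with digoxin and 3.95-fold with ouabain (adjusted p = 3.73e-14 with digoxin and 1.68e-12 with ouabain). CCN2 had 1253, 1168 and 1191 CPM with digoxin and 1137, 752 and 1051 CPM with ouabain, against 401, 381 and 384 CPM with vehicle, which are log2 changes of 1.63 ± 0.13 with digoxin and 1.33 ± 0.12 with ouabain. CCN1 rose with a log2 change of 0.86 ± 0.10 with digoxin and 0.73 ± 0.10 with ouabain. ANKRD1 had 35.6, 40.9 and 36.7 CPM with digoxin and 41.7, 32.8 and 47.2 CPM with ouabain, against 14.5, 15.3 and 13.6 CPM with vehicle. No drug-treated library of these genes overlapped the vehicle libraries.

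SRF and MRTFB were lower with each drug at 16 h. MRTFB had 2.24, 2.83 and 3.02 CPM with digoxin and 3.25, 5.14 and 3.36 CPM with ouabain, against 7.70, 11.04 and 11.8 CPM with vehicle. The log2 changes were -1.92 ± 0.24 with digoxin and -1.37 ± 0.23 with ouabain, with no overlap. SRF itself had 33.8, 29.5 and 30.4 CPM with digoxin and 34.98, 41.2 and 33.4 CPM with ouabain, against 43.8, 44.0 and 45.8 CPM with vehicle (-0.51 ± 0.09 with digoxin and -0.28 ± 0.09 with ouabain). MYOCD fell with a log2 change of -1.13 ± 0.29 with digoxin and -0.67 ± 0.27 with ouabain, and MRTFA fell with digoxin (-0.29 ± 0.11) and was not called with ouabain (-0.02 ± 0.11). Among the filament genes CNN2 (digoxin -0.88, ouabain -0.82), MYLK (-0.78 with digoxin and -0.62 with ouabain), LMOD1 (-0.97 with digoxin and -0.91 with ouabain), PALLD (-0.58 with digoxin and -0.57 with ouabain) and VCL (-0.41 with digoxin and -0.32 with ouabain) fell with each drug. ACTA2 rose with digoxin (0.31 ± 0.10) and was at 0.18 ± 0.10 with ouabain. With library totals alone the digoxin value of ACTA2 was -0.0025, so its direction depends on the scaling. TAGLN, TAGLN2, TPM2, TPM4, CALD1, MYL6, MYL9, ACTN1 and FLNA rose with digoxin at 16 h with log2 changes between 0.18 (ACTN1) and 0.50 (MYL6), of which TAGLN2, CALD1, MYL9, ACTN1 and FLNA also rose with ouabain. With library totals alone TPM4, CALD1 and ACTN1 had values below 0 with digoxin, as did TAGLN2, CALD1, MYL9 and ACTN1 with ouabain. MYH9, MYH10 and TLN1 fell with digoxin and MYH10, TPM1 and PDLIM7 with ouabain, with log2 changes between -0.35 (MYH9, digoxin) and -0.23 (PDLIM7, ouabain). CNN1, ACTG2, CNN3, SYNPO2, MYH11, ZYX, ACTN4, PDLIM5, VIM and DES were not called with either drug at 16 h. Several digoxin calls were lost without 1 library: TAGLN without vehicle replicate 3 (0.26), ACTN1 without vehicle or digoxin replicate 1 (0.11 and 0.15), TLN1 without vehicle replicate 2 or 3 (-0.27 and -0.26), TPM2 without vehicle replicate 2 or 3 or digoxin replicate 3 (between 0.35 and 0.39), MYH10 without vehicle replicate 2 or 3 or digoxin replicate 2 (between -0.30 and -0.27) and MRTFA without vehicle replicate 2 or 3 or digoxin replicate 1 or 3 (between -0.28 and -0.22). With ouabain the SRF call was lost without ouabain replicate 3 (-0.22, adjusted p = 0.0632). The calls of MYOCD (between -0.74 and -0.43) and PDLIM7 (between -0.26 and -0.17) were lost without any library but ouabain replicate 2, that of MYL9 (between 0.15 and 0.22) without any but ouabain replicate 3, that of MYH10 (between -0.31 and -0.26) without vehicle replicate 2 or 3 or ouabain replicate 3, and that of TPM1 (between -0.27 and -0.26) without vehicle replicate 1 or ouabain replicate 2 or 3.

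At 36 h most of the genes were lower with either drug. With digoxin 22 fell and 6 rose, beside 32.4% and 31.6% of all tested genes, with a median log2 change of -0.47. With ouabain 22 fell and 7 rose, beside 30.8% and 30.2% of all tested genes, with a median of -0.41. With the caspase inhibitor 22 fell and 5 rose with digoxin, beside 32.1% and 30.3% of all tested genes, and 21 fell and 8 rose with ouabain, beside 30.6% and 28.9%. The 38 genes together took 1.27 ± 0.0185% of all counts with digoxin and 1.37 ± 0.00927% with ouabain, against 1.86 ± 0.00406% with vehicle. VIM is the most abundant of the genes, and without it the shares were 0.986 ± 0.0238% with digoxin, 1.08 ± 0.0128% with ouabain and 1.28 ± 0.00480% with vehicle. These shares divide by library totals alone. Against TMM, that scaling moved the median of all tested genes by -0.31 with digoxin and -0.22 with ouabain at 36 h. The part of this shift in the lower shares was not tested. All 22 genes that fell with digoxin at 36 h also fell in the separate libraries with the inhibitor, and 21 of the 22 that fell with ouabain did so. With the inhibitor the calls of ACTN4, MYH11 and MYL6 (digoxin) and of ACTA2, ACTN4, DES, MYH11 and TAGLN (ouabain) were each lost without at least 1 of the libraries compared.

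Filament, myosin and adhesion genes fell most. CNN2 had 26.3, 30.7 and 31.3 CPM with digoxin and 27.2, 31.3 and 37.8 CPM with ouabain, against 121, 123 and 118 CPM with vehicle. It was 4.10-fold lower with digoxin and 3.78-fold lower with ouabain (adjusted p = 3.64e-19 with digoxin and 1.85e-18 with ouabain). MYLK had 67.5, 73.1 and 78.5 CPM with digoxin and 71.0, 76.9 and 82.9 CPM with ouabain, against 308, 315 and 316 CPM with vehicle. PALLD had 66.6, 65.1 and 68.6 CPM with digoxin and 63.5, 66.8 and 68.4 CPM with ouabain, against 242, 243 and 237 CPM with vehicle. In these 3 genes the drug-treated and vehicle libraries were far apart, with falls of 4.29-fold for MYLK and 3.61-fold for PALLD with digoxin, and 4.08-fold and 3.64-fold with ouabain.

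Vinculin followed the same direction, with 249, 265 and 252 CPM with digoxin and 240, 266 and 270 CPM with ouabain, against 665, 668 and 659 CPM with vehicle (-1.38 ± 0.07 with digoxin and -1.36 ± 0.07 with ouabain). MYH10 had 13.5, 11.3 and 12.7 CPM with digoxin and 17.4, 17.4 and 18.8 CPM with ouabain, against 38.3, 38.6 and 39.4 CPM with vehicle (-1.63 ± 0.13 with digoxin and -1.12 ± 0.12 with ouabain). PDLIM7 fell with a log2 change of -1.19 ± 0.10 with digoxin and -1.14 ± 0.10 with ouabain, and TPM1 with -1.04 ± 0.10 with digoxin and -0.94 ± 0.10 with ouabain. VIM had 3416, 3301 and 3204 CPM with digoxin and 2880, 3172 and 3102 CPM with ouabain, against 5406, 5408 and 5348 CPM with vehicle, which puts every drug-treated library under every vehicle library (-0.70 ± 0.08 with digoxin and -0.82 ± 0.08 with ouabain). LMOD1, already low in senescent cells, had 7 counts with digoxin over 3 libraries and 179 counts with vehicle, a ratio of 0.0572 (95% counting interval 0.0227 to 0.12). The fitted log2 change of LMOD1 was -4.07 ± 0.45 with digoxin and -3.50 ± 0.39 with ouabain. Its 3 ouabain libraries had 0.105, 0.0534 and 0.763 CPM, all under the vehicle libraries with 2.63, 3.22 and 2.61 CPM.

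ACTA2, CNN1 and ACTG2 also fell at 36 h, while TAGLN was not called. ACTA2 had 54.1, 57.8 and 58.0 CPM with digoxin and 48.6, 63.8 and 67.2 CPM with ouabain, against 84.4, 82.1 and 89.0 CPM with vehicle. The groups did not overlap, and the log2 changes were -0.59 ± 0.10 with digoxin and -0.51 ± 0.10 with ouabain. CNN1 fell with a log2 change of -0.62 ± 0.15 with digoxin and -0.70 ± 0.15 with ouabain, and ACTG2 with -0.66 ± 0.12 with digoxin and -0.46 ± 0.12 with ouabain. CNN3, CALD1, TPM4, MYH9, MYH11, TLN1, ZYX and ACTN4 also fell with both drugs, with log2 changes between -0.88 (MYH11, ouabain) and -0.19 (ACTN4, digoxin). TAGLN (-0.06 ± 0.11 with digoxin and 0.14 ± 0.11 with ouabain), TAGLN2, TPM2, MYL9, FLNA and ACTN1 were not called with either drug. PDLIM5 was not called with digoxin (-0.06 ± 0.05) and fell with ouabain (-0.20 ± 0.05). SRF and MRTFA were not called, MRTFB fell with a log2 change of -0.98 ± 0.22 with digoxin and -0.85 ± 0.21 with ouabain, and MYOCD fell with digoxin (-0.67 ± 0.26) and was at -0.40 ± 0.24 with ouabain. Without vehicle replicate 3 the digoxin value of MYOCD was -0.59 (adjusted p = 0.0738), and without digoxin replicate 2 it was -0.45 (adjusted p = 0.166). The digoxin calls of MYH11 (-0.58 without vehicle replicate 3 and -0.63 without digoxin replicate 1) and ACTN4 (-0.16 without digoxin replicate 2) were lost in the same way.

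A small set rose at 36 h. CCN1 had 435, 458 and 472 CPM with digoxin and 359, 405 and 411 CPM with ouabain, against 128, 127 and 126 CPM with vehicle. CCN2 had 1045, 1186 and 1246 CPM with digoxin and 813, 1007 and 1064 CPM with ouabain, against 319, 322 and 335 CPM with vehicle. Every drug-treated library was above every vehicle library, and the rises with digoxin were 3.58-fold for CCN1 and 3.56-fold for CCN2, and those with ouabain 3.08-fold and 2.96-fold for the same genes. SYNPO2 had 13.9, 8.71 and 6.96 CPM with digoxin and 9.74, 7.52 and 7.80 CPM with ouabain, against 1.59, 1.79 and 1.45 CPM with vehicle and, in proliferating cells of that time, 14.5, 14.7 and 13.7 CPM. It rose 6.12-fold with digoxin (adjusted p = 3.82e-12) and 5.20-fold with ouabain (adjusted p = 5.35e-11). FLNC rose with a log2 change of 1.28 ± 0.16 with digoxin and 1.21 ± 0.16 with ouabain, and ANKRD1 by 0.80 ± 0.15 with digoxin and 0.85 ± 0.15 with ouabain, although with the inhibitor ANKRD1 was not called with digoxin (0.24 ± 0.15). MYL6 rose with ouabain (0.57 ± 0.15) and was at 0.22 ± 0.15 with digoxin. DES had 13 counts with digoxin and 18 with ouabain against 3 with vehicle, ratios of 6.34 (95% counting interval 1.74 to 34.7) and 7.67 (2.24 to 40.6). The digoxin call of DES was lost without digoxin replicate 1 (fitted log2 change 1.97, adjusted p = 0.0780).

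**Figure D4:**
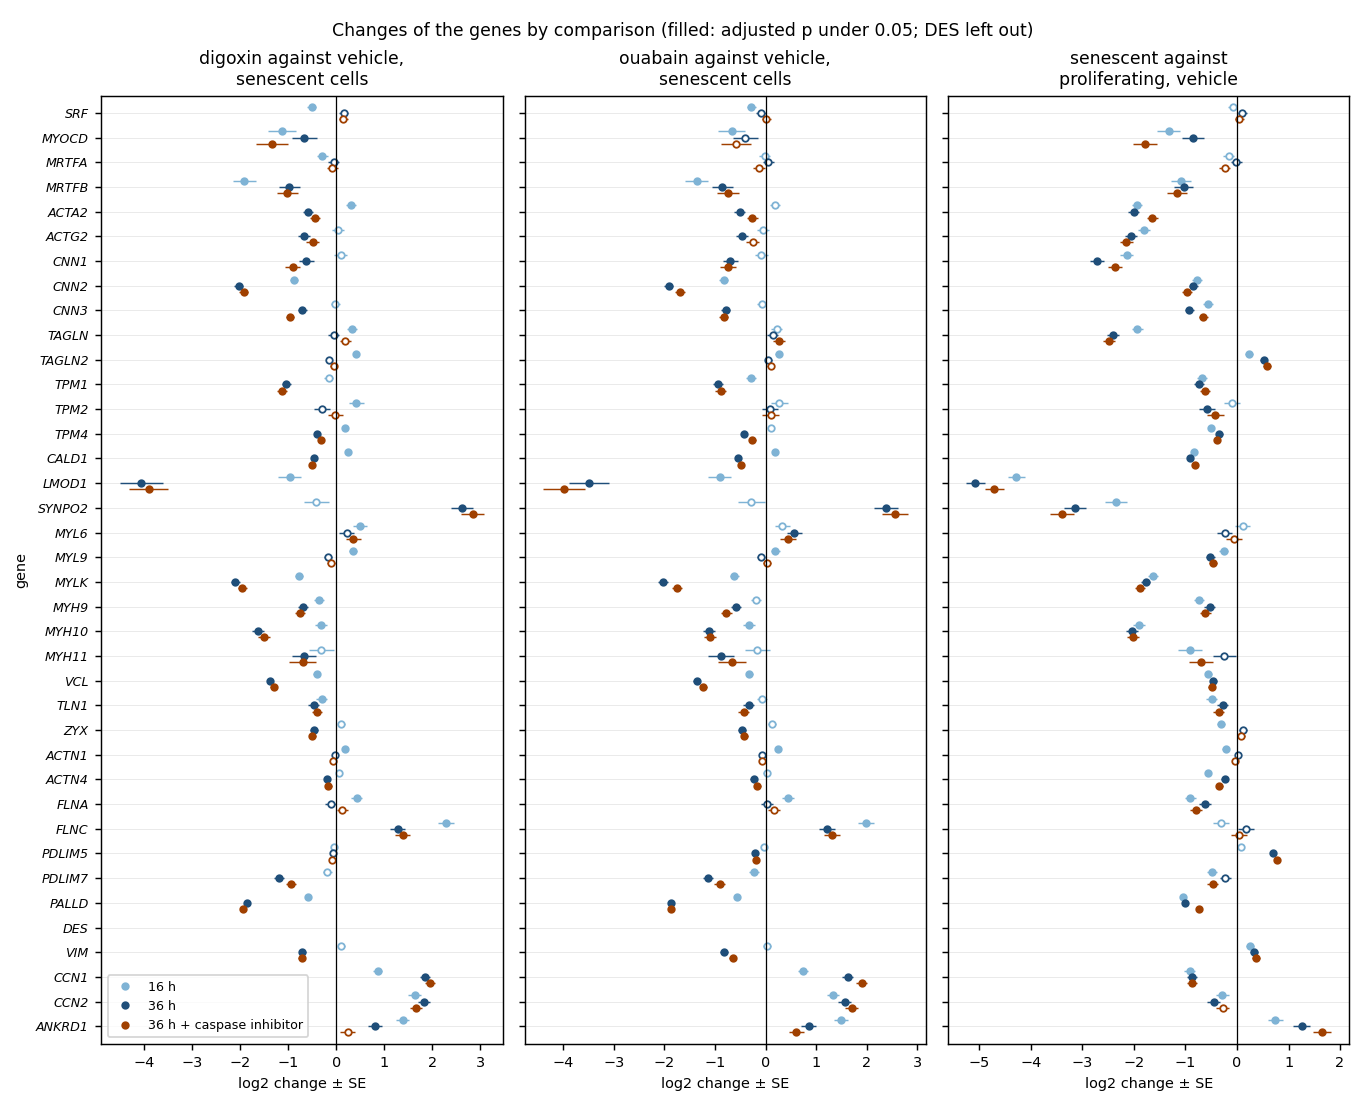
Log2 change with its SE for 37 of the genes (DES, with at most 37 counts over 3 libraries in any group, is left out), for digoxin and ouabain against vehicle in senescent cells and for senescent against proliferating cells; colour marks time, filled points passed an adjusted p of 0.05. In the drug panels the 36 h points of CNN2, MYLK, PALLD, VCL and LMOD1 lie left of the 16 h points and those of SYNPO2 and CCN1 right of them.

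The drug effects at 36 h and 16 h were then compared in the same model. The digoxin effect was lower at 36 h than at 16 h for 24 of the 38 genes and higher for 4, beside 19.3% and 23.4% of all tested genes. The ouabain effect was lower at 36 h for 21 and higher for 3, beside 16.7% and 18.4%. For PALLD the difference between the effects was -1.27 ± 0.08 with digoxin (adjusted p = 2.55e-14) and -1.29 ± 0.08 with ouabain (adjusted p = 4.73e-14). MYLK (-1.32 with digoxin and -1.41 with ouabain), CNN2 (-1.15 with digoxin and -1.09 with ouabain), VCL (-0.97 with digoxin and -1.04 with ouabain), CALD1 (-0.71 with digoxin and -0.74 with ouabain) and VIM (-0.81 with digoxin and -0.85 with ouabain) had lower effects at 36 h with each drug. SYNPO2 had a higher one, by 3.03 ± 0.35 with digoxin and 2.66 ± 0.35 with ouabain, and so did CCN1, by 0.98 ± 0.14 with digoxin and 0.89 ± 0.14 with ouabain. FLNC rose at both times but less at 36 h (-1.0 with digoxin and -0.78 with ouabain), and ANKRD1 likewise (-0.58 with digoxin and -0.63 with ouabain). The effect on CCN2 was not called different between the times (0.20 ± 0.17 with digoxin and 0.23 ± 0.17 with ouabain). SRF and MRTFB had a higher digoxin effect at 36 h (0.67 ± 0.13 and 0.94 ± 0.33), and their ouabain differences were 0.19 ± 0.13 and 0.51 ± 0.31, neither called. The MRTFB difference lost its call without vehicle replicate 3 or digoxin replicate 1 of 16 h or digoxin replicate 1 of 36 h (between 0.82 and 0.87), and the digoxin difference of ANKRD1 without digoxin replicate 2 of 16 h or vehicle replicate 2 of 36 h (-0.52 and -0.51). Calls of ACTN4 and TAGLN (digoxin) and of ACTN4, DES, FLNA and MYH9 (ouabain) were also lost without 1 library.

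Between ouabain and digoxin at the same time, 38 genes were compared in each of 3 arms, with p-values adjusted over all 18696 genes. At 16 h 0 of the 38 passed the test, beside 4.94% of all tested genes, and with the inhibitor 0 passed, beside 1.45%. At 36 h 1 passed, beside 5.36% of all tested genes: MYH10, with 17.4, 17.4 and 18.8 CPM with ouabain and 13.5, 11.3 and 12.7 CPM with digoxin, was higher with ouabain by 0.51 ± 0.14 (95% interval 0.24 to 0.79, adjusted p = 0.0205). The call was lost without digoxin replicate 2 or 3 or ouabain replicate 1 or 3, where the difference lay between 0.44 and 0.53 (adjusted p between 0.0516 and 0.123). At an unadjusted p under 0.05, 5 of the 38 genes passed at 16 h, 8 at 36 h and 7 with the inhibitor, beside 17.3%, 19.7% and 13.1% of all tested genes; DESeq2 called 0, 2 and 0. A missed threshold does not show equal action, and the doses, which are not stated, may not be matched. The 95% intervals of the ouabain minus digoxin difference at 36 h were -0.13 to 0.11 for PALLD, -0.12 to 0.16 for VCL, -0.09 to 0.32 for CNN2, -0.12 to 0.27 for MYLK, -0.42 to -0.01 for CCN1, -0.39 to 0.24 for FLNC and -0.63 to 0.15 for SYNPO2. For LMOD1, with 12 counts with ouabain and 7 with digoxin, the interval was -1.03 to 2.18.

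The caspase inhibitor and the passage of time without drug were compared within each treatment. Between cells with and without the inhibitor at 36 h, 1 gene rose with digoxin (PALLD, 0.38 ± 0.06), beside 0.305% of all tested genes, and 4 with ouabain (PALLD 0.47, MYLK 0.40, CNN3 0.29 and CALD1 0.22), beside 5.31%. In senescent vehicle cells 2 rose and 2 fell with the inhibitor, beside 5.27% and 2.14% of all tested genes: PALLD (0.48 ± 0.06) and CNN3 (0.33 ± 0.09) rose, and TAGLN (-0.45 ± 0.11) and PDLIM7 (-0.48 ± 0.10) fell. In proliferating cells PALLD rose (0.20 ± 0.06) and CNN1 (-0.41 ± 0.12) and TAGLN2 (-0.25 ± 0.07) fell, where 2.75% of all tested genes rose and 0.834% fell. In senescent vehicle cells the inhibitor call of CNN3 was lost whichever library was left out (adjusted p between 0.0550 and 0.0763) and that of TAGLN without replicate 1 with the inhibitor (-0.39), while the compared groups alone called 23 of the 38 and a fit with no filter called 8. The 3 calls in proliferating cells were each lost without at least 1 of the libraries compared, as were those of MYLK, CNN3 and CALD1 with ouabain. PALLD had 352, 317 and 336 CPM in senescent vehicle cells with the inhibitor, against 242, 243 and 237 CPM without it, with no overlap. Between 36 h and 16 h, 5 genes fell in senescent vehicle cells (CNN2, TAGLN, TPM1, CALD1 and ANKRD1), beside 0.776% of all tested genes, and 12 fell in proliferating cells (SRF, CNN2, TPM1, TPM4, CALD1, VCL, ZYX, ACTN1, ACTN4, PDLIM5, PDLIM7 and ANKRD1), beside 5.12%. In senescent cells none of the 5 calls over time held under every alternative: CNN2, TAGLN, TPM1 and ANKRD1 lost theirs whichever library was left out (adjusted p between 0.0552 and 0.268), and a fit of the compared groups alone called 13 of the 38. Of the 12 in proliferating cells, PDLIM5 held under every alternative, the compared groups alone called 1, and leaving out 1 library gave 7 to 17. The inhibitor arms were not compared for a difference of drug effect.

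Within a library, the ratio of 2 related genes needs no scaling between libraries, and 4 such ratios were compared over 9 libraries against 9, permuting labels within the 3 arms. The smallest p these 8000 permutations can give is 0.00025, or 0.0005 after adjustment over 12 tests. The CNN1 to CNN2 ratio was lower in senescent than in proliferating cells, by a difference of -1.53 on the log2 scale (exact permutation test, adjusted p = 0.0005), and higher by 1.13 with digoxin and by 0.98 with ouabain than with vehicle (exact permutation test, adjusted p = 0.0005 each). Its mean log2 ratio at 36 h was -2.27 with digoxin, -2.43 with ouabain, -3.66 in senescent vehicle and -1.80 in proliferating cells. The TAGLN to TAGLN2 ratio was lower in senescent cells, by a difference of -2.71 (exact permutation test, adjusted p = 0.0005). Its difference from vehicle was 0.09 with digoxin (exact permutation test, adjusted p = 0.144) and 0.07 with ouabain (adjusted p = 0.0668). In the separate arms the digoxin difference was -0.08 at 16 h, 0.09 at 36 h and 0.24 with the inhibitor. The ouabain difference of this ratio was -0.03, 0.09 and 0.17 in the same order. MYH10 to MYH9 was lower in senescent cells, by a difference of -1.36 (exact permutation test, adjusted p = 0.0005). It was lower than with vehicle, by a difference of -0.55 with digoxin (exact permutation test, adjusted p = 0.006) and -0.33 with ouabain (adjusted p = 0.000857). By time, the digoxin difference of MYH10 to MYH9 was 0.03 at 16 h, -0.94 at 36 h and -0.75 with the inhibitor. Over the arms without the inhibitor it was -0.46 (exact permutation test, adjusted p = 0.108). The ouabain difference was -0.15 at 16 h, -0.53 at 36 h and -0.32 with the inhibitor.

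ACTA2 was also set against its close relative ACTB, the ubiquitous beta actin. ACTB averaged 2530 ± 35.2 CPM in senescent cells at 36 h, against 3158 ± 102 CPM in proliferating cells, and ACTG1, the cytoplasmic gamma actin, averaged 2253 ± 34.6 CPM in senescent and 2083 ± 124 CPM in proliferating cells. With digoxin ACTB averaged 1719 ± 20.4 CPM and ACTG1 985 ± 20.2 CPM, and with ouabain 1451 ± 33.6 and 951 ± 59.1 CPM, so all 3 actins had lower means with the drugs at that time. The ACTA2 to ACTB ratio was lower in senescent cells, by a difference of -1.52 (exact permutation test, adjusted p = 0.0005). It was higher than with vehicle by 0.20 with digoxin (exact permutation test, adjusted p = 0.0075) and by 0.31 with ouabain (adjusted p = 0.0015). By time, the digoxin difference was 0.36 at 16 h, -0.03 at 36 h and 0.27 with the inhibitor. Over the arms without the inhibitor it was 0.16 (exact permutation test, adjusted p = 0.0933). The ouabain difference was 0.28 at 16 h, 0.28 at 36 h and 0.38 with the inhibitor. Per kilobase of exon, ACTA2 stood at 28.6 CPM in senescent and 115 CPM in proliferating cells at 36 h, and ACTB at 719 CPM in senescent and 898 CPM in proliferating cells. Actins, tropomyosins, filamins and myosin light chains all have close relatives. The treatment of shared reads and of strand in counting is not given in the sources used here. Reads of copies and of overlapping or antisense genes may therefore be split between them.

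**Figure D5:**
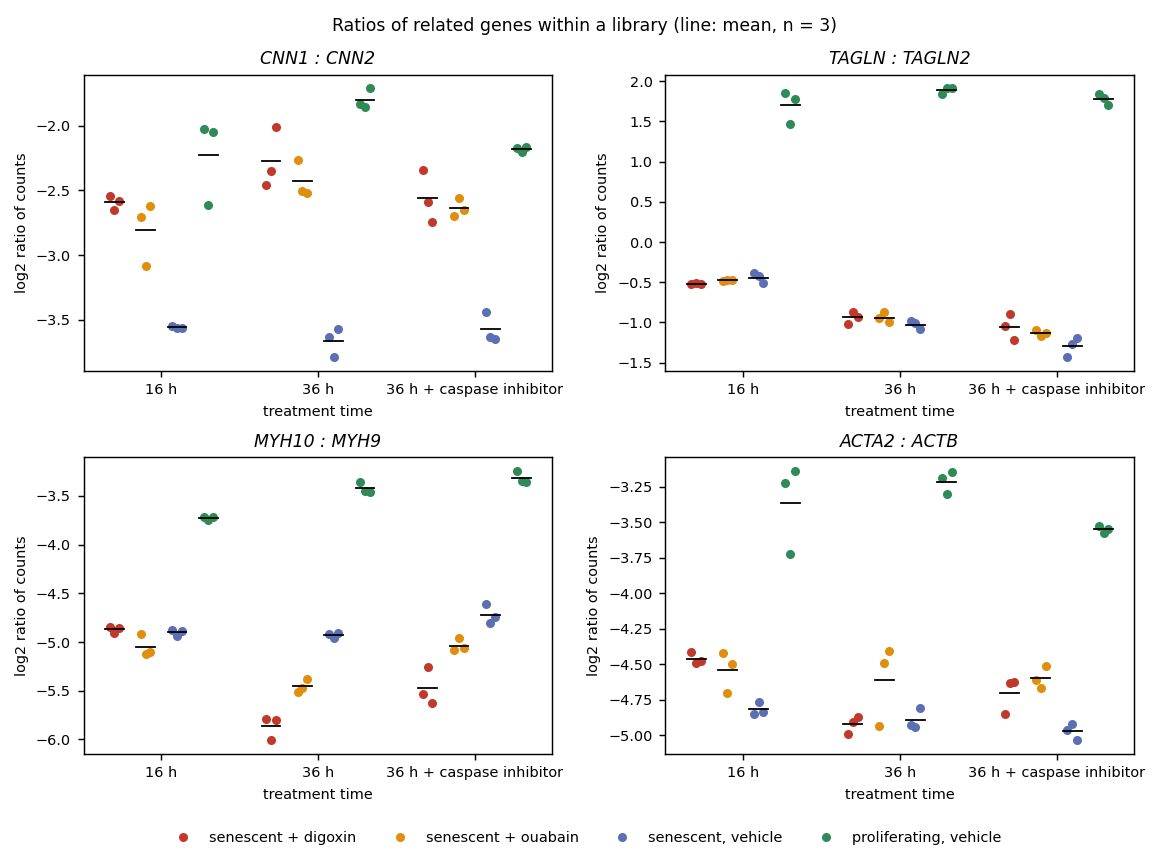
Log2 ratio of counts of 2 related genes within each library, by time, with a line at the mean of 3. Senescent vehicle libraries lie below proliferating libraries for all 4 pairs at each time, and drug-treated libraries lie above senescent vehicle libraries for CNN1 to CNN2.

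The genes around the contractile set moved in part differently; these lists were also chosen with earlier results known, and only counts and medians are given. The counts at 36 h stand beside 31.6% of all tested genes that rose and 32.4% that fell with digoxin, 30.2% and 30.8% with ouabain, and 26.7% and 25.8% in senescent against proliferating cells. Of 10 SRF targets of the ternary complex factors and these factors, 10 rose and 0 fell with digoxin at 36 h and 9 rose and 0 fell with ouabain, with medians of 2.69 and 2.41 on the log2 scale. FOS, an immediate early transcription factor, rose with a log2 change of 7.39 ± 0.35 with digoxin and 7.26 ± 0.35 with ouabain, and EGR1, another, by 3.72 ± 0.21 with digoxin and 3.44 ± 0.21 with ouabain. In senescent against proliferating cells at 36 h, 8 of the 10 rose and 1 fell. Of 24 integrin and focal adhesion genes, 16 fell and 5 rose with digoxin at 36 h and 17 fell and 3 rose with ouabain, with medians of -0.54 and -0.56. TNS1, a tensin that links integrins to actin, fell with a log2 change of -3.44 ± 0.25 with digoxin and -2.87 ± 0.24 with ouabain, and TGFB1I1 (Hic-5), a paxillin relative, with -1.79 ± 0.14 with digoxin and -1.38 ± 0.13 with ouabain. In senescent cells this list had 11 lower and 9 higher of 24.

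Of 26 YAP and TEAD genes, 15 fell and 4 rose in senescent against proliferating cells at 36 h. With digoxin 12 fell and 11 rose, and with ouabain 13 fell and 11 rose. LATS2, a kinase that restrains YAP, rose with a log2 change of 2.81 ± 0.11 with digoxin and 2.68 ± 0.11 with ouabain, and F3 (tissue factor) fell with a log2 change of -3.35 ± 0.13 with digoxin and -3.34 ± 0.13 with ouabain. Of 23 genes of actin monomers and turnover, 11 rose and 8 fell with digoxin, 9 rose and 8 fell with ouabain, and 10 rose and 7 fell in senescence; gelsolin (GSN), which severs filaments, fell with a log2 change of -1.88 ± 0.07 with digoxin and -1.62 ± 0.07 with ouabain. Of 15 TGF-beta genes, a pathway that drives myofibroblasts, 8 rose and 7 fell in senescence, 8 rose and 5 fell with digoxin and 6 rose and 6 fell with ouabain. SMAD3, a signal carrier of that pathway, fell with a log2 change of -1.2 ± 0.10 in senescence, and of -2.11 ± 0.11 with digoxin and -2.08 ± 0.11 with ouabain. Other genes of the list went the other way. PMEPA1 averaged 21.2 CPM in senescent vehicle and 6.32 CPM in proliferating cells at 36 h. TGFBR1, a receptor, averaged 146.9 CPM with digoxin and 138.5 CPM with ouabain, against 46.8 CPM with vehicle.

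Markers of other cell types give the setting of these changes. Of 10 fibroblast markers, 10 fell in senescent against proliferating cells at 36 h, 9 at 16 h and 10 with the inhibitor, when 25.8%, 25.2% and 25.7% of all tested genes fell, and their summed level was between 3281 and 3323 CPM in senescent and between 11840 and 13400 CPM in proliferating libraries at 36 h. With digoxin 4 rose and 4 fell, with sums between 1798 and 2157 CPM, and with ouabain 4 rose and 4 fell, with sums between 2101 and 2353 CPM. The sums are mostly the collagens COL1A1 and COL1A2. COL1A1 averaged 262.5 CPM with digoxin and 306.5 CPM with ouabain, against 1121 CPM with vehicle, and COL1A2 934, 1101 and 1423 CPM in that order. The marker DCN averaged 226.5 CPM with digoxin and 224.2 CPM with ouabain, against 84.2 CPM with vehicle. Of 13 tested of 15 other smooth muscle markers, 9 fell and 1 rose in senescence at 36 h, with log2 changes of 1.72 ± 0.07 for SMTN (smoothelin) and -2.63 ± 0.15 for CSRP2, a LIM protein of smooth muscle. With digoxin 7 fell and 2 rose and with ouabain 4 fell and 2 rose, CSRP2 rising by 2.10 ± 0.15 with digoxin and 2.09 ± 0.15 with ouabain. Epithelial markers summed to between 32.2 and 38.1 CPM in the drug-treated and senescent vehicle libraries at 36 h and to between 45.9 and 60.3 CPM in proliferating libraries. Of 7 endothelial markers 4 were tested, of which 2 rose and 2 fell with each drug at 36 h. PECAM1 was not found by symbol in the count table, and the sums take the other 6 markers. Their sum, between 29.3 and 43.5 CPM with digoxin and 24.9 and 29.95 CPM with ouabain, against 6.53 to 8.64 CPM with vehicle, was mostly KDR, an endothelial growth factor receptor, in the drug-treated libraries (a mean of 29.8 CPM with digoxin and 19.3 CPM with ouabain, against 0.168 CPM with vehicle; log2 changes 7.37 ± 0.33 with digoxin and 6.73 ± 0.34 with ouabain). TEK, the angiopoietin receptor, fell with log2 changes of -1.36 ± 0.20 with digoxin and -1.13 ± 0.19 with ouabain. Muscle markers summed to at most 7.63 CPM in any library and leukocyte markers to at most 7.69 CPM. The part of such markers in the changes was not tested.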

How the data were processed

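Per the labels' protocols, cells were lysed in TRIzol, RNA was cleaned on RNeasy columns, and a stranded mRNA kit was used for the libraries. Reads were aligned with TopHat2 2.0.11 to hg19 and counted with featureCounts, per the submitters' processing notes; the sources used here do not give the annotation release, the strand setting or the featureCounts version. The deposited file holds raw read counts per gene, one column per library, and 0 columns could not be assigned. Of 57232 genes, 51367 could be given a symbol and 10690 had no count. Library totals lay between 10854351 and 21446415 counts, which limits rare genes most; counting intervals cover counting error only.

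From these counts, genes were filtered with filterByExpr by group (18696 kept), scaled by TMM and fitted with group means of all 12 groups in edgeR 4.0.16 (quasi-likelihood test, limma 3.58.1, R 4.3.3), with Benjamini-Hochberg adjustment over all tested genes and a threshold of 0.05. Standard errors are the log2 change divided by the square root of F. CPM were divided by GENCODE exon length where genes are compared. Ratios of counts had 0.5 added to each count and were tested with exact permutations within the 3 arms. Alternatives were RLE and library-size scaling, no filter, DESeq2 1.42.0, the compared groups alone, a replicate block, and leaving out libraries. Figures used matplotlib 3.10.9 in Python 3.11.15.

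All 38 genes are named, with ACTB and ACTG1 for the actin isoforms, and of each other list at most 3 genes per comparison: those of largest change among called genes with at least 5 CPM. The genes and lists were chosen with earlier results of these data known. Same-numbered replicates did not deviate together (0 of 18 comparisons with every pair's correlation over 0.1), so numbers were not used as pairs. The result of 1 further gene list is not reported here.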

Additional observations from a re-analysis of the deposited data

Results flagged for a closer look

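The effect of each drug on the contractile genes differed between 36 h and 16 h, by the interaction term of the edgeR model, and this was singled out where the difference was at least 1 on the log2 scale. With digoxin the effect differed for 28 of the 38 genes, lower at 36 h for 24 and higher for 4, beside 19.3% and 23.4% of all tested genes. With ouabain it differed for 24, lower for 21 and higher for 3, beside 16.7% and 18.4%. The digoxin effect was lower at 36 h by a log2 difference of -3.10 for LMOD1, -1.32 for MYLK, -1.31 for MYH10, -1.27 for PALLD, -1.15 for CNN2, -1.01 for PDLIM7 and -1.004 for FLNC, and higher by 3.03 for SYNPO2. The ouabain effect was lower at 36 h by -2.59 for LMOD1, -1.41 for MYLK, -1.29 for PALLD, -1.09 for CNN2 and -1.04 for VCL, and higher by 2.66 for SYNPO2 and 4.24 for DES. The DES value rests on 1 count over the 3 ouabain libraries at 16 h and 18 counts at 36 h and depends on the prior count of the fit, and its call was lost without any of 5 libraries in turn (between 3.07 and 3.92, adjusted p between 0.0552 and 0.322). Both drugs are set against the same vehicle libraries. Why the effects differ between the times was not tested.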

How the results depend on the processing

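Scaling by library totals alone moved the median of all tested genes by between -0.11 and -0.15 in senescent against proliferating cells. For drug against vehicle the median moved by between -0.21 and -0.32. Changes of sign were counted only for values called under TMM, under library totals or under both. By that rule 17 values changed sign. These were ACTN1 in senescence at 36 h (-0.14); with digoxin at 16 h ACTA2 (-0.0025), ACTG2 (-0.29), TPM4 (-0.13), CALD1 (-0.0701), ZYX (-0.21), ACTN1 (-0.14), ACTN4 (-0.27) and VIM (-0.21); with ouabain at 16 h TAGLN2 (-0.0249), TPM4 (-0.18), CALD1 (-0.10), MYL9 (-0.0866), ACTN1 (-0.035), ACTN4 (-0.26) and VIM (-0.26); and TAGLN2 with ouabain at 36 h (-0.17). Total calls among the 38 genes in the comparisons of senescence, digoxin and ouabain stayed within 1.5 times of the value given under every alternative run, but counts by direction did not. At 16 h library totals gave 4 rises and 23 falls with digoxin, 4 and 21 with ouabain and 1 rise in senescence; leaving out the libraries that stood apart gave 14 rises with ouabain and 1 in senescence, leaving out ouabain replicate 3 gave 6 falls, and the compared groups alone gave 1 rise in senescence at 16 h and 9 with digoxin and the inhibitor.

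The comparisons with few calls moved more. For ouabain against digoxin, at 16 h 2 of the 38 genes passed with no filter, 281 genes in all without the libraries that stood apart, and 0 in all with the compared groups alone; at 36 h 2 passed with library totals, 4 with no filter, 2 with DESeq2 and 8 with the compared groups alone (2150 genes in all); with the inhibitor 2 passed with the compared groups alone (933 genes in all), and DESeq2 called 426 genes. For 36 h against 16 h, the compared groups alone gave 13 of the 38 and 1093 genes in senescent vehicle cells, and 1 and 84 in proliferating cells, where 2758 genes were called without the libraries that stood apart. For the inhibitor, senescent vehicle cells gave 8 of the 38 and 668 genes with no filter and 23 and 5562 alone. Proliferating cells gave 5 of the 38 with library totals, 5 with DESeq2 (1125 genes), 6 alone, and 415 genes with no filter. Digoxin gave 2 and 434 alone and 256 genes with DESeq2. Ouabain gave 7 with library totals, 11 with no filter, 8 with DESeq2 and 13 alone (2786 genes). Without the inhibitor arm, the digoxin difference of the MYH10 to MYH9 ratio was -0.46 (exact permutation test, adjusted p = 0.108). That of ACTA2 to ACTB was 0.16 (exact permutation test, adjusted p = 0.0933). The cause of these shifts was not tested.

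Leaving out 1 library in turn gave, of the 38 genes and of all genes, 0 to 1 and 127 to 1693 for ouabain against digoxin at 16 h, 0 to 1 and 374 to 655 at 36 h, and 92 to 305 genes with the inhibitor. For 36 h against 16 h it gave 1 and 128 to 148 in senescent vehicle cells and 7 to 17 and 994 to 2612 in proliferating cells. For the inhibitor it gave 2 to 3 and 527 to 870 (senescent vehicle), 0 to 4 and 129 to 676 (proliferating), 1 to 2 and 94 to 113 (digoxin) and 1 to 6 and 765 to 1239 (ouabain). The ouabain difference of the TAGLN to TAGLN2 ratio lay between 0.0503 and 0.0909, and it passed the test in 3 of these runs though not with all libraries.

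Of the calls among the 38 genes, 24 of 32, 29 of 30 and 28 of 30 (senescence at 16 h, at 36 h, with the inhibitor), 13 of 26, 24 of 28 and 24 of 27 (digoxin) and 10 of 20, 29 of 29 and 22 of 29 (ouabain) kept their call under every alternative run, as did 24 of 28 and 20 of 24 differences between 36 h and 16 h (digoxin, ouabain). With the replicate block, 31 of the 38 were called in senescence at 16 h and 19 with ouabain at 16 h; same-numbered libraries correlated between -0.207 and 0.26, so the numbers do not pair them, and no count moved by more than 1.5 times.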
